A study of Mus musculus with 6 samples.

Results

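The transcripts of 9 genes for carriers of leucine, glutamine and related amino acids were measured by RNA-seq in cultured mouse dendritic cells, with and without DB2313. The genes were chosen by name for their function, with earlier results of these data known. They were Slc3a2, Slc7a5, Slc7a6, Slc7a8, Slc43a2, Slc1a5, Slc38a1, Slc38a2 and Slc36a1. They are 9 of the 54532 genes counted, and all 9 were among the 14174 genes that passed the filter on low counts. DB2313 is a small molecule that the study used to inhibit Spi1 (PU.1), a transcription factor of myeloid cells. There were 3 control libraries and 3 libraries treated with DB2313, all described in the labels as dendritic cells, and no strain, genotype, age, dose or time of treatment was given there. The study dealt with the relation of C1q-positive macrophages to CD8 T cells, with Spi1 as a regulator of C1q, and its methods spoke of macrophages where the labels spoke of dendritic cells. In the table the columns of this second group bear the name Spi1 in place of DB2313, and all directions given here depend on taking them for the treated libraries. The labels did not say whether replicates came from separate cultures or animals, so the p-values measure the spread between libraries, which may be technical.

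Amino acids cross the plasma membrane through carriers. Slc3a2 encodes the heavy chain 4F2hc (CD98), a glycoprotein that brings a light chain to the cell surface, and the light chains LAT1 (Slc7a5), LAT2 (Slc7a8) and y+LAT2 (Slc7a6) carry out the exchange. LAT1 typically takes up leucine in return for glutamine, which the cell gathers through ASCT2 (Slc1a5) and the sodium-coupled carriers SNAT1 (Slc38a1) and SNAT2 (Slc38a2). LAT4 (Slc43a2) moves branched-chain amino acids, phenylalanine and methionine without a heavy chain, and PAT1 (Slc36a1) is a proton-coupled carrier of small amino acids such as proline and glycine that is also found on lysosomes. Leucine and glutamine feed the kinase complex mTORC1, and activated dendritic cells are known for a rise in this uptake.

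Total counts ranged from 16146743 to 19764677 per library. The control libraries resembled each other more than the treated ones did, with a chi-square statistic per degree of freedom of 5.03 to 5.58 between control pairs and of 7.96 to 19.4 between DB2313 pairs. The widest gap was that between DB2313 replicates 1 and 3. Of 16 dendritic cell markers, 13 reached 10 CPM (read counts scaled to library size) as a mean, although Clec9a, Xcr1 and Cd209a, which mark particular dendritic cell subsets, did not. Macrophage markers were also present, 12 of 14 at that level, as were 12 of 12 neutrophil, 12 of 14 T cell and 7 of 10 mast cell and basophil markers. Of 6 endothelial markers, 2 reached that level (Pecam1 and Vwf). No marker of B cells, fibroblasts or erythroid cells reached it, and the fibroblast genes Col3a1, Dcn and Lum were at 0 in every library. Spi1 itself had 366 ± 18.4 CPM (SD, n = 3) in control and 329 ± 20.1 CPM (SD, n = 3) in DB2313 libraries, with an adjusted p of 0.206 in the edgeR quasi-likelihood test. An inhibitor of a protein need not change its transcript, so this value does not check the labels.

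Of the 9 transporters, 2 fell with DB2313 and none rose at an adjusted p under 0.05 in the edgeR quasi-likelihood test. The 2 were Slc43a2, to 78.9% of its control mean, and Slc38a2, to 80.2%. Slc3a2, Slc7a5, Slc7a6, Slc7a8, Slc1a5, Slc38a1 and Slc36a1 did not pass, with means between 89.3% and 114% of control. Across all 14174 genes tested, 10.6% were called in either direction, 4.66% higher and 5.94% lower, so 2 of 9 (22.2%) lies above the background by about 1 gene. The median log2 fold change of the 9 was -0.06, beside 0.00082 for all genes tested. The libraries of the groups did not overlap for 4 of the 9 (Slc43a2, Slc38a2, Slc3a2 and Slc7a5), where 27.4% of all tested genes showed no overlap, and all 4 were lower with DB2313. At an unadjusted p under 0.05 there were 4 of the 9 (Slc43a2, Slc38a2, Slc1a5 and Slc7a5), or 44.4%, against 3309 of all genes, or 23.3%. In bulk RNA, fewer cells of a type and less RNA per cell cannot be told apart.

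**Figure D1:**
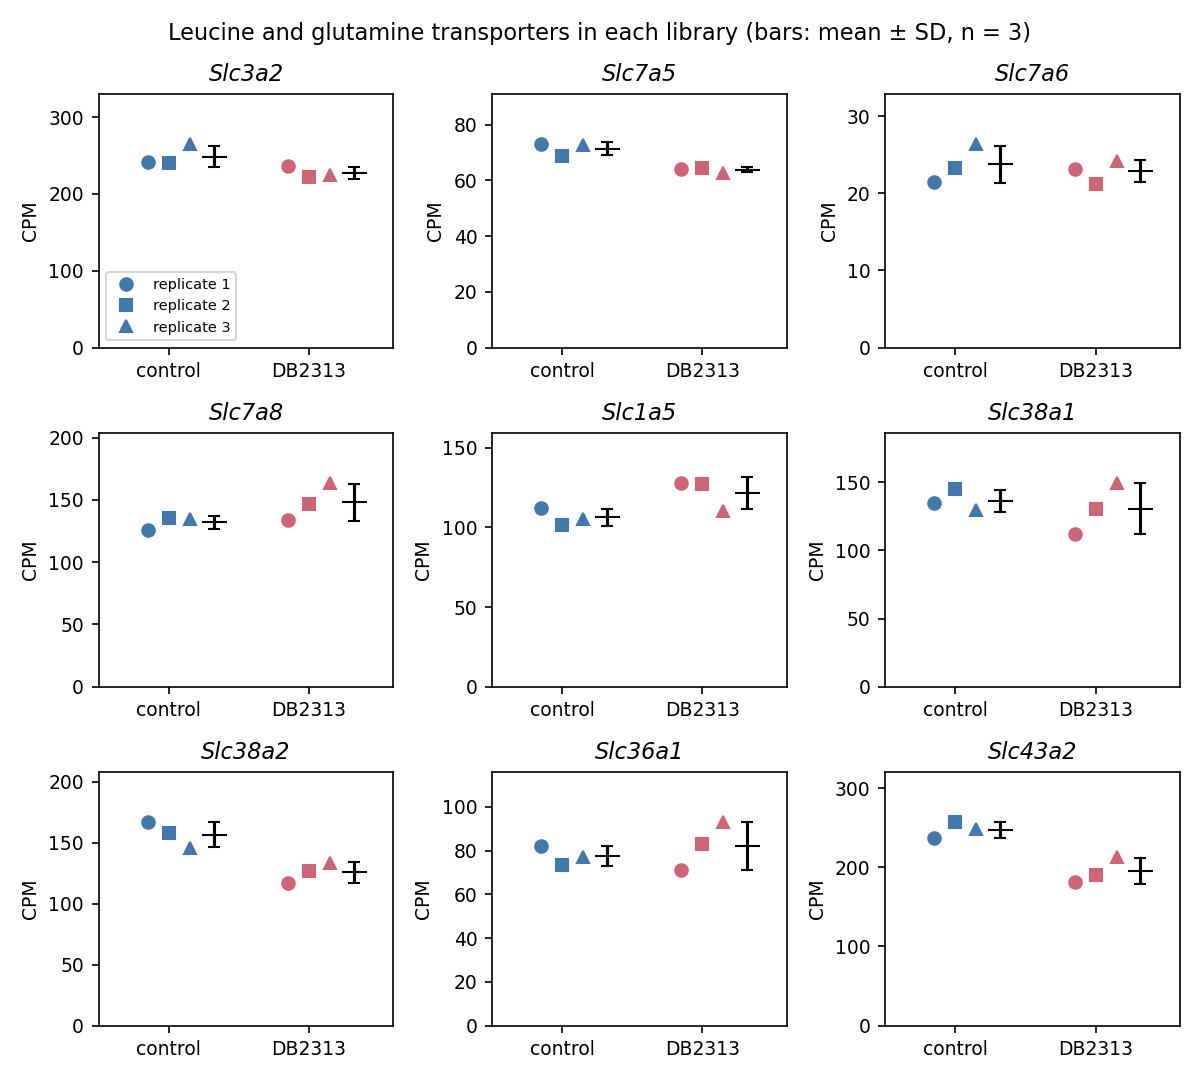
Level of each of the 9 transporters in CPM (vertical axes, from 0) in the 3 control (blue) and 3 DB2313 (red) libraries, with the replicate number as the symbol and the mean ± SD (n = 3) in black. The groups are apart for Slc43a2, Slc38a2, Slc3a2 and Slc7a5, and DB2313 replicate 1 is the lowest and replicate 3 the highest treated library for Slc7a8, Slc38a1, Slc38a2, Slc36a1 and Slc43a2.

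Slc43a2 (ENSMUSG00000038178, GRCm38 chr11:75531694-75577575, plus strand), the gene of LAT4, had the lowest p of the 9. It had 236, 257 and 248 CPM in control replicates 1 to 3, and 182, 190.0 and 213 CPM in DB2313 replicates 1 to 3. Every treated library lay below every control library, and the nearest pair was control replicate 1 and DB2313 replicate 3. The log2 fold change was -0.34 ± 0.07 (SE, 95% confidence interval -0.50 to -0.18) with an adjusted p of 0.00802 by edgeR, from 2993 to 4092 counts per library. The value stayed between -0.41 and -0.29 when each library was left out in turn, and the call was lost without DB2313 replicate 2 (-0.32, adjusted p = 0.0697, edgeR) and without control replicate 2 (-0.31, adjusted p = 0.0605, edgeR). The exons of Slc43a2 share 922 bp (9.18% of them) with the antisense gene Gm45606 on the opposite strand. Since strandedness was not given, reads of the pair cannot be told apart there, and Gm45606 was counted at 108 to 185 reads per library.

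Slc38a2 (ENSMUSG00000022462, chr15:96687392-96699730, minus strand) encodes SNAT2, the carrier that cells typically raise when amino acids run short. Its control replicates 1 to 3 had 167, 158 and 146 CPM, and its DB2313 replicates 1 to 3 had 117, 127 and 134 CPM. The groups were again apart, with control replicate 3 the lowest control and DB2313 replicate 3 the highest treated library. The log2 fold change was -0.32 ± 0.08 (SE, 95% confidence interval -0.49 to -0.15) with an adjusted p of 0.0160 (edgeR), from 1923 to 2712 counts. With 1 library left out the value ranged from -0.37 to -0.27, and the call was lost without control replicate 1 (adjusted p = 0.105, edgeR), without control replicate 2 (adjusted p = 0.0819, edgeR) and without DB2313 replicate 2 (-0.32, adjusted p = 0.0828, edgeR).

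Both genes are long, and long genes had a lower median log2 fold change as a class. The gene lengths of the table were 10042 bp for Slc43a2 and 8838 bp for Slc38a2, which with Slc38a1 at 17236 bp were the longest of the 9. Among the 2835 tested genes of 7066 bp or more the median log2 fold change was -0.07, and among the 2835 of 2005 bp or less it was 0.07. With an offset for gene length in the fit, Slc43a2 was at -0.28 (adjusted p = 0.00368, edgeR) and Slc38a2 at -0.26 (adjusted p = 0.00991, edgeR), so both calls stood. Relative to the mean of the 6 libraries, genes of at least 8000 bp had a median log2 deviation of -0.14 in DB2313 replicate 1 and of 0.07 in DB2313 replicate 3, the same libraries in which Slc43a2, Slc38a2 and Slc38a1 were lowest and highest among the treated ones. The deviation was 0.032, 0.087 and 0.0045 in control replicates 1 to 3 and -0.035 in DB2313 replicate 2. Long genes were thus not lower in every treated library, since DB2313 replicate 3 lay among the controls. The summed markers of dendritic cells ran from 13732 to 13971 CPM in control and from 11727 to 13555 CPM in DB2313 libraries, and those of macrophages from 10081 to 11474 and from 9107 to 10013 CPM. Both sums were lower with DB2313 without overlap, and remained so without the most abundant gene of each, Cd74 and Lyz2. The markers did not move as one, since of the 16 dendritic cell markers 3 fell (Itgax, Batf3 and Irf4) and 1 rose (Clec9a), and of the 14 macrophage markers 6 fell and 2 rose (Marco and Fcgr1), where 10.6% of all genes were called. Of the 12 neutrophil markers 3 rose (Ly6g, Elane and Retnlg) and 1 fell (Csf3r), with sums of 4560 to 5122 CPM in control and 4619 to 6063 CPM in DB2313 libraries, and of the 10 mast cell and basophil markers 2 rose (Fcer1a and Hdc). Of the 14 T cell markers 1 rose (Cd28) and none fell, with sums of 292 to 334 CPM in control and 292 to 418 CPM in DB2313 libraries. Proliferation markers summed to 1913 to 1929 CPM in control and 1978 to 2069 CPM in DB2313 libraries. Of these 20 markers, however, none rose and 1 fell (Plk1, log2 fold change -0.40), so 5% were called. The part of these shifts in the values of Slc43a2 and Slc38a2 was not tested.

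The promoters of the 2 genes that fell are shown with that of Slc36a1, whose promoter alone held one of the motifs searched. RefSeq (GRCm38.p6) gave 8 promoters for 6 of the 9 genes, each from 250 bases before to 50 after a start, and had none for Slc7a5, Slc1a5 and Slc38a1. Printed are the 130 bases before and the first 20 after the start, 5′ to 3′ on the strand of the gene, at chr11:75531564-75531713 (plus strand) and chr11:75531982-75532131 (plus strand) for 2 starts of Slc43a2, at chr15:96699709-96699858 (minus strand) for Slc38a2, and at chr11:55204210-55204359 (plus strand) for Slc36a1. Capitals mark a CACGTG E-box, the element read by MYC and the TFE family.
Slc43a2, upstream start: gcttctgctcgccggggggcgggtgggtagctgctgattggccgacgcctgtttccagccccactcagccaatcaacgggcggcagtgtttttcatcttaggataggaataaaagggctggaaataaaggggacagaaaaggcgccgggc
Slc43a2, downstream start: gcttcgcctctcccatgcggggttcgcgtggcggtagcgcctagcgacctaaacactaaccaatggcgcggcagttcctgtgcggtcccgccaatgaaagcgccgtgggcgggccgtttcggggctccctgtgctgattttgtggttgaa
Slc38a2: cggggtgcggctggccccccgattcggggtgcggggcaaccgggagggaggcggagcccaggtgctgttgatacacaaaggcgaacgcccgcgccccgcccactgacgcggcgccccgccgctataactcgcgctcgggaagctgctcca
Slc36a1: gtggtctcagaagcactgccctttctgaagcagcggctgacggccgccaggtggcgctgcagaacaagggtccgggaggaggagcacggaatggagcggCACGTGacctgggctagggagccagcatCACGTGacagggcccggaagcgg
The 3 motifs were searched on both strands of the whole window of 300 bases, and none of them is contained in another. They were TGATGNAA, read by ATF4 with a C/EBP factor and present in 3.97% of 32851 promoters of this length, CACGTG (7.15%) and GAGGAAGT, a PU.1 sequence (3.20%). Slc36a1 held CACGTG at 2 places, beginning 31 and 3 bases before the start, and the other 7 promoters held no match in these letters. Slc36a1 was not called, with a log2 fold change of 0.08 ± 0.10 (SE).

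The heavy chain gene Slc3a2 (ENSMUSG00000010095, chr19:8706882-8723369, minus strand) had 241, 240.0 and 265 CPM in control replicates 1 to 3, and 236, 222 and 224 CPM in DB2313 replicates 1 to 3. The treated libraries lay below the controls, with DB2313 replicate 1 close to controls 1 and 2. Its log2 fold change of -0.13 ± 0.07 (SE, 95% confidence interval -0.28 to 0.02) had an adjusted p of 0.288 (edgeR), and without control replicate 3 it was -0.080. Slc7a5 (ENSMUSG00000040010, chr8:121881150-121907694, minus strand), the LAT1 light chain, had 72.9, 68.6 and 72.5 CPM in control and 63.9, 64.5 and 62.7 CPM in DB2313 replicates 1 to 3. These were the most even values among the 9, with a coefficient of variation of 3.37% in control and 1.41% in DB2313 libraries, and the groups did not overlap. The log2 fold change was -0.16 ± 0.08 (SE, 95% confidence interval -0.32 to -0.0014), with a p of 0.0483 before and 0.209 after adjustment (edgeR).

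The light chain Slc7a8 (ENSMUSG00000022180, chr14:54722209-54781946, minus strand) had 126, 136 and 135 CPM in control and 134, 147 and 163 CPM in DB2313 replicates 1 to 3. DB2313 replicate 1 fell among the controls and replicate 3 stood well above them. The log2 fold change was 0.16 ± 0.08 (SE, 95% confidence interval -0.0096 to 0.33) with an adjusted p of 0.244 (edgeR), and 0.23 with an adjusted p of 0.0504 (edgeR) without DB2313 replicate 1. Without DB2313 replicate 3 it was 0.087 with an adjusted p of 0.483 (edgeR). The light chain Slc7a6 (ENSMUSG00000031904, chr8:106168857-106198706, plus strand) was the scarcest of the 9, with 350 to 424 counts per library, 23.7 ± 2.44 CPM (SD, n = 3) in control and 22.9 ± 1.47 CPM (SD, n = 3) in DB2313 libraries. Its groups overlapped, and its log2 fold change of -0.05 ± 0.11 (SE, adjusted p = 0.824, edgeR) turned to 0.03 without control replicate 3.

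The glutamine carrier Slc1a5 (ENSMUSG00000001918, chr7:16781340-16798274, plus strand), the gene of ASCT2, had 112, 102 and 105 CPM in control and 128, 127 and 110.1 CPM in DB2313 replicates 1 to 3. DB2313 replicates 1 and 2 lay above all controls, and replicate 3 lay among them. Its log2 fold change was the highest of the 9, at 0.19 ± 0.08 (SE, 95% confidence interval 0.02 to 0.36), with a p of 0.0277 before and 0.149 after adjustment (edgeR). Without DB2313 replicate 3 it was 0.26 with an adjusted p of 0.0159 (edgeR), and without any 1 of the other libraries it was not called. Leaving out DB2313 replicate 3 also raised the calls over all genes, from 661 to 1097 higher and from 842 to 1311 lower.

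The other glutamine carrier of the SNAT family, Slc38a1 (ENSMUSG00000023169, chr15:96571418-96642913, minus strand), had 135, 145 and 129 CPM in control and 112, 131 and 149 CPM in DB2313 replicates 1 to 3. The treated libraries spanned the controls from below the lowest to above the highest. The log2 fold change of -0.06 ± 0.09 (SE, adjusted p = 0.761, edgeR) had no stable sign: it was 0.06 with the offset for gene length and 0.04 without DB2313 replicate 1. A stretch of 1450 bp of Slc38a1 matched 4632432E15Rik at 96.6% identity, a gene listed at 0 counts in all libraries, so how reads of the copy were assigned is uncertain. Slc36a1 (ENSMUSG00000020261, chr11:55204350-55236330, plus strand) had 82.3, 73.3 and 77.2 CPM in control and 71.0, 82.9 and 92.9 CPM in DB2313 replicates 1 to 3. The groups overlapped, with DB2313 replicate 1 below every control, replicate 2 just above the highest control and replicate 3 further above it. Its adjusted p was 0.662 (edgeR), and its sign turned without DB2313 replicate 3 (-0.0095).

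**Figure D2:**
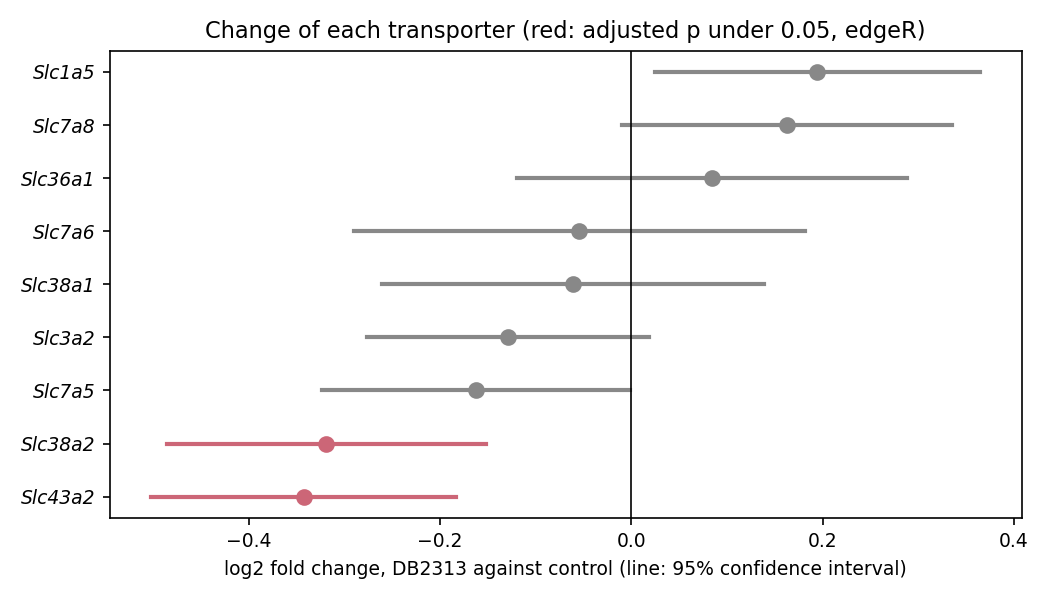
Log2 fold change of each transporter, DB2313 against control (horizontal axis), as a point with its 95% confidence interval from edgeR. Slc43a2 at -0.34 and Slc38a2 at -0.32 passed the adjusted threshold (red), and the intervals of Slc7a5 and Slc1a5 also lay on one side of 0 without passing it.

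DB2313 replicate 1 was the lowest treated library for 5 of the 9 transporters, and DB2313 replicate 3 was the highest for 6. The summed level of the 9 was 1194 to 1204 CPM in the control libraries, and 1067, 1111 and 1173 CPM in DB2313 replicates 1 to 3. The sum is thus lower in every treated library, by the least in replicate 3. It contains the 2 called genes, Slc43a2 (mean 247 CPM in control, 195 CPM in DB2313 libraries) and Slc38a2 (157 and 126 CPM). It is therefore no separate sign of a fall of the whole set, and the means of Slc7a8, Slc1a5 and Slc36a1 were higher with DB2313.

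The ratio of 2 transporters within a library does not depend on how libraries are scaled. Slc7a5 stood to Slc3a2 at 0.287 ± 0.0142 (SD, n = 3) counts in control and 0.280 ± 0.0101 (SD, n = 3) in DB2313 libraries, and the groups overlapped (p = 0.6, exact two-sided permutation test). The light chain Slc7a8 stood to Slc7a5 at 1.73, 1.98 and 1.86 in control and at 2.09, 2.27 and 2.60 in DB2313 replicates 1 to 3, a log2 difference of 0.32 without overlap. Slc38a2 stood to Slc38a1 at 1.24, 1.09 and 1.13 in control and at 1.04, 0.969 and 0.895 in DB2313 replicates 1 to 3, a log2 difference of -0.25 without overlap. For both of these the exact permutation p was 0.1, the smallest that 3 against 3 can give, and 0.15 when adjusted over the 3 ratios.

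Levels of different genes were compared per kilobase of the gene length in the table. In control libraries Slc3a2 was the highest at 70.5 ± 3.93 CPM per kilobase (SD, n = 3), 2.67 times the next. Slc7a8 (26.4 ± 1.04), Slc1a5 (25.5 ± 1.26) and Slc43a2 (24.6 ± 1.01) followed, and their libraries overlapped with those of the neighbour in this order. Slc7a5 (19.2 ± 0.649) and Slc38a2 (17.7 ± 1.20) also overlapped, and below them came Slc36a1 (13.8 ± 0.796), Slc38a1 (7.91 ± 0.462) and Slc7a6 (5.19 ± 0.533), each apart from its neighbour. With DB2313 the order differed in that Slc36a1 (14.6 ± 1.95) stood beside Slc38a2 (14.2 ± 0.959), with libraries that overlapped, and that Slc43a2 (19.4 ± 1.61) was apart from Slc1a5 (29.1 ± 2.38).

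The order in the middle depended on the length used. Per kilobase of the principal transcript of GENCODE M21, Slc3a2 was still the highest (137 ± 7.62 CPM per kilobase, SD, n = 3, control) and Slc7a6 the lowest (6.33 ± 0.650). Slc1a5 (38.5 ± 1.90) then came before Slc43a2 (34.6 ± 1.43) and Slc38a2 (33.6 ± 2.27), and Slc7a8 moved behind them (32.4 ± 1.27). Among the 3 light chains per kilobase of the length in the table, Slc7a8 made up 50.8% to 53.4% of the sum in control and 54.5% to 59.5% in DB2313 libraries. Slc7a5 made up 36.5% to 39.7% and 30.9% to 35.1%, and Slc7a6 between 9.07% and 11.0% over the 6 libraries. These shares describe transcripts and not the chains that reach the membrane.

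**Figure D3:**
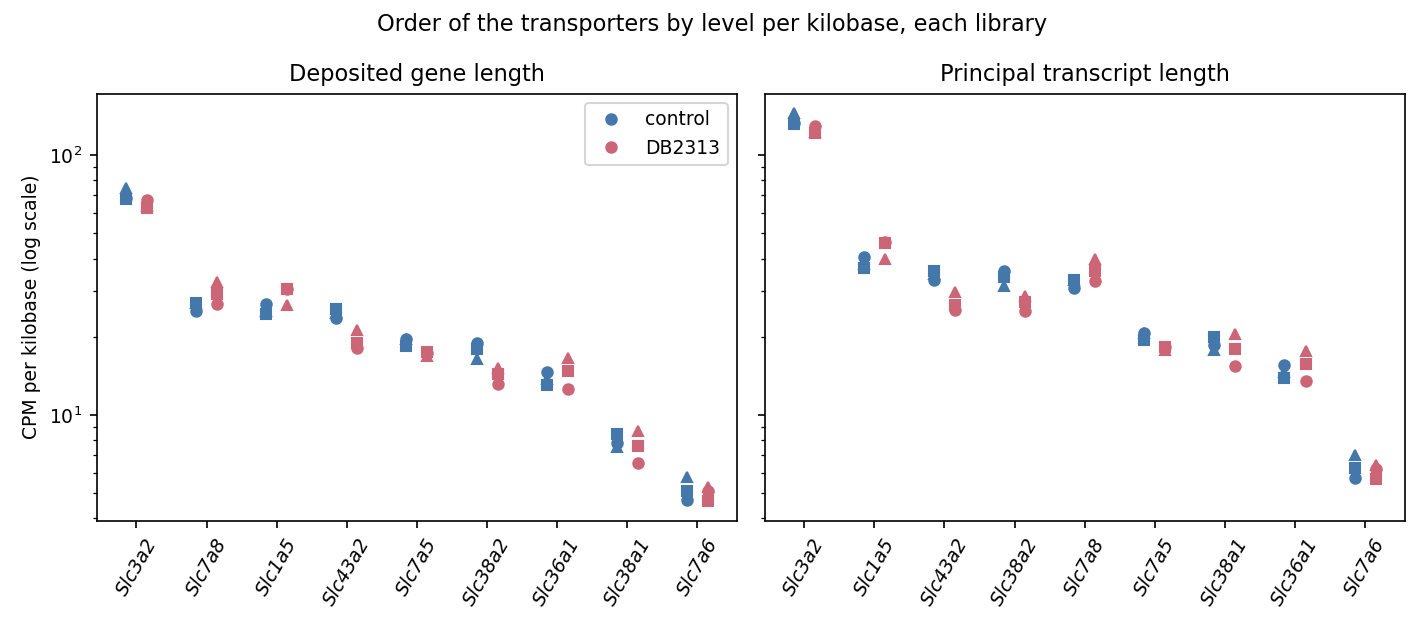
CPM per kilobase (log scale) of each transporter in the 3 control (blue) and 3 DB2313 (red) libraries, with the gene length of the table on the left and the principal transcript length on the right, ordered by the control mean. Slc3a2 is at the top and Slc7a6 at the bottom with either length, while in control Slc38a2 lies below Slc7a8 on the left and overlaps with it on the right, and in DB2313 libraries it lies below Slc7a8 on both sides.

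The genes whose pattern over the 6 libraries was nearest to that of Slc43a2 were Tle3, Sik3 and Myo9b. Likeness was the Euclidean distance between log2 CPM values centred on the mean of each gene, over 9713 genes with a mean log2 CPM of at least 3. Tle3, a transcriptional corepressor, lay at 0.0578, Sik3, a salt-inducible kinase, at 0.0715, and Myo9b, a motor protein with a RhoGAP domain, at 0.0741, against a median of 0.536 for all genes. Their log2 fold changes of -0.33, -0.34 and -0.32 follow from being near to Slc43a2. Of the other transporters Slc38a2 was the nearest at 0.207, and Slc1a5 the farthest at 0.760.

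Of 37 other amino acid transporters of the plasma membrane 16 were tested, of which 1 rose and 4 fell (31.2% called, against 10.6% of all genes), with a median log2 fold change of -0.24. Slc16a10, the aromatic amino acid carrier TAT1, had 68.4, 69.7 and 63.9 CPM in control and 38.0, 33.7 and 39.5 CPM in DB2313 replicates 1 to 3, a log2 fold change of -0.86 ± 0.09 (SE, adjusted p = 1.98e-05, edgeR). The list and its share of called genes also include the creatine carrier Slc6a8, although creatine is not leucine, glutamine or another amino acid of proteins. Slc6a8 fell from 26.9 ± 1.47 to 14.8 ± 3.06 CPM (SD, n = 3 each), a log2 fold change of -0.86 ± 0.13 (SE, adjusted p = 0.000733, edgeR). Slc7a11, the light chain of the cystine and glutamate exchanger xCT, which also pairs with Slc3a2, fell from 239 ± 10.0 to 171 ± 12.7 CPM, a log2 fold change of -0.48 ± 0.07 (SE, adjusted p = 0.000615, edgeR). The groups did not overlap for any of these 3 genes. The other called genes were the cationic amino acid carrier Slc7a2 (-0.58 on the log2 scale) and the neutral amino acid exchanger ASCT1 (Slc1a4, 0.59), a close relative of Slc1a5, both named after their values were seen.

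Of 14 lysosomal transporters 13 were tested, and 1 fell and none rose (7.69% called, against 10.6% of all genes). Slc15a3, a proton-coupled carrier of peptides and histidine in the lysosome of myeloid cells, had 352, 364 and 365 CPM in control and 253, 221 and 243 CPM in DB2313 replicates 1 to 3, a log2 fold change of -0.59 ± 0.07 (SE, adjusted p = 7.17e-05, edgeR). Next by p were the cystine exporter Ctns (0.22, adjusted p = 0.146, edgeR) and Mfsd12 (-0.15, adjusted p = 0.250, edgeR), which did not pass. At an unadjusted p under 0.05 there were 2 of the 13 (15.4%), against 23.3% of all genes.

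All 41 genes of leucine sensing and mTORC1 control were tested, of which 1 rose and 4 fell (12.2% called, close to the 10.6% of all genes), with a median log2 fold change of -0.0046. The lowest p-values belonged to Castor2 (185 ± 12.2 to 146 ± 4.09 CPM, log2 fold change -0.35, adjusted p = 0.00576, edgeR), Sesn3 (101 ± 11.9 to 77.1 ± 6.04 CPM, -0.39, adjusted p = 0.0128) and Castor1 (35.5 ± 1.20 to 25.9 ± 4.14 CPM, -0.45, adjusted p = 0.0190). Castor1 is a cytosolic arginine sensor with Castor2 as its partner, and Sesn3 belongs to the sestrins, among which leucine sensors are known. The other sestrins, Sesn1 (-0.0046, adjusted p = 0.987, edgeR) and Sesn2 (-0.06, adjusted p = 0.713, edgeR), were not called and were named after their values were seen. Rptor, the scaffold subunit of mTORC1 (-0.28), and Wdr24, a subunit of GATOR2 (0.34), were also called and were named after their values were seen.

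Of 40 genes of glutamine and branched-chain amino acid metabolism 3 rose and 1 fell (10% called, against 10.6% of all genes), with a median of 0.05. Glul, the glutamine synthetase, had 175, 183 and 185 CPM in control and 146, 141 and 134 CPM in DB2313 replicates 1 to 3, a log2 fold change of -0.37 ± 0.07 (SE, adjusted p = 0.00273, edgeR). Gclm, the modifier subunit of the first enzyme of glutathione synthesis, rose from 109 ± 6.15 to 143 ± 1.53 CPM (log2 fold change 0.39, adjusted p = 0.00254, edgeR), and Psat1, a transaminase of serine synthesis that uses glutamate, from 65.0 ± 5.97 to 84.4 ± 6.38 CPM (0.38, adjusted p = 0.0132, edgeR). The third to rise was the liver-type glutaminase Gls2 (0.47), named after its values were seen.

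The called genes of the ATF4 amino acid response moved both ways, and most genes of this list were not called. Of 46 on the list 42 were tested, of which 4 rose and 5 fell (21.4% called, against 10.6% of all genes), with a median of -0.02. Those with the lowest p were Wars, the tryptophanyl-tRNA synthetase, at 172 ± 9.54 CPM in control and 113 ± 4.75 CPM in DB2313 libraries (-0.60 ± 0.07 SE, adjusted p = 9.42e-05, edgeR), the mitochondrial PEP carboxykinase Pck2 at 37.6 ± 2.41 and 57.3 ± 1.40 CPM (0.61 ± 0.08 SE, adjusted p = 0.000293), and the transcription factor Atf5 at 57.7 ± 0.574 and 34.8 ± 4.98 CPM (-0.73 ± 0.10 SE, adjusted p = 0.000300). Slc7a11 and Psat1 belong to this list as well. Phgdh (0.53) and Gdf15 (0.97) rose and Mthfd2 (-0.40) and Ppp1r15a (-0.32) fell, all 4 named after their values were seen. Atf4 itself (-0.04, adjusted p = 0.851, edgeR) was not called, nor were Asns (0.05) and Ddit3 (0.01), likewise named after their values were seen. Slc3a2, Slc7a5 and Slc38a2 are themselves known targets of ATF4 and were counted with the 9 transporters, not on this list.

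Of 22 tested genes of the MYC network and other regulators of these transporters, 3 rose and 1 fell (18.2% called, against 10.6% of all genes), with a median of 0.01. Max, the partner of MYC, rose from 86.1 ± 4.26 to 112 ± 7.17 CPM (log2 fold change 0.38, adjusted p = 0.00486, edgeR). Txnip, an inhibitor of glucose uptake that responds to the MYC relatives MondoA and ChREBP, rose from 181 ± 14.6 to 225 ± 2.22 CPM (0.31, adjusted p = 0.0119, edgeR). Mxd1, which competes with MYC for Max, fell from 258 ± 18.6 to 213 ± 5.81 CPM (-0.28, adjusted p = 0.0207, edgeR), and did not pass with the replicate number as a block (adjusted p = 0.0589, edgeR). Mlx (0.32), the partner of MondoA, was the other gene that rose and was named after its values were seen. Myc itself (0.07, adjusted p = 0.757, edgeR) was not called, nor were Mnt (0.01) and Mga (-0.10), likewise named after their values were seen. Lists are described by these counts, and no test of a list was made. The lists, too, were chosen with earlier results of these data known.

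The list counts varied with the libraries used. With 1 library left out, 0 to 3 genes of leucine sensing and mTORC1 control rose and 0 to 6 fell. Those that rose were 0 without any 1 control library or DB2313 replicate 2 and 3 without DB2313 replicate 3, and those that fell were 0 without control replicate 2, 1 without DB2313 replicate 2 and 6 without DB2313 replicate 3. In the MYC network 1 to 4 genes rose and 0 to 2 fell, in glutamine and branched-chain amino acid metabolism 1 to 4 rose and 1 to 3 fell, and in the ATF4 response 3 to 4 rose and 3 to 6 fell. In each of these the most genes fell without DB2313 replicate 3 or replicate 1, the libraries farthest apart. The other plasma membrane transporters (4 to 5 lower) and the lysosomal transporters (1 lower) varied least. Of the 26 genes called in these lists, 14 passed with each of the 6 libraries left out.

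**Figure D4:**
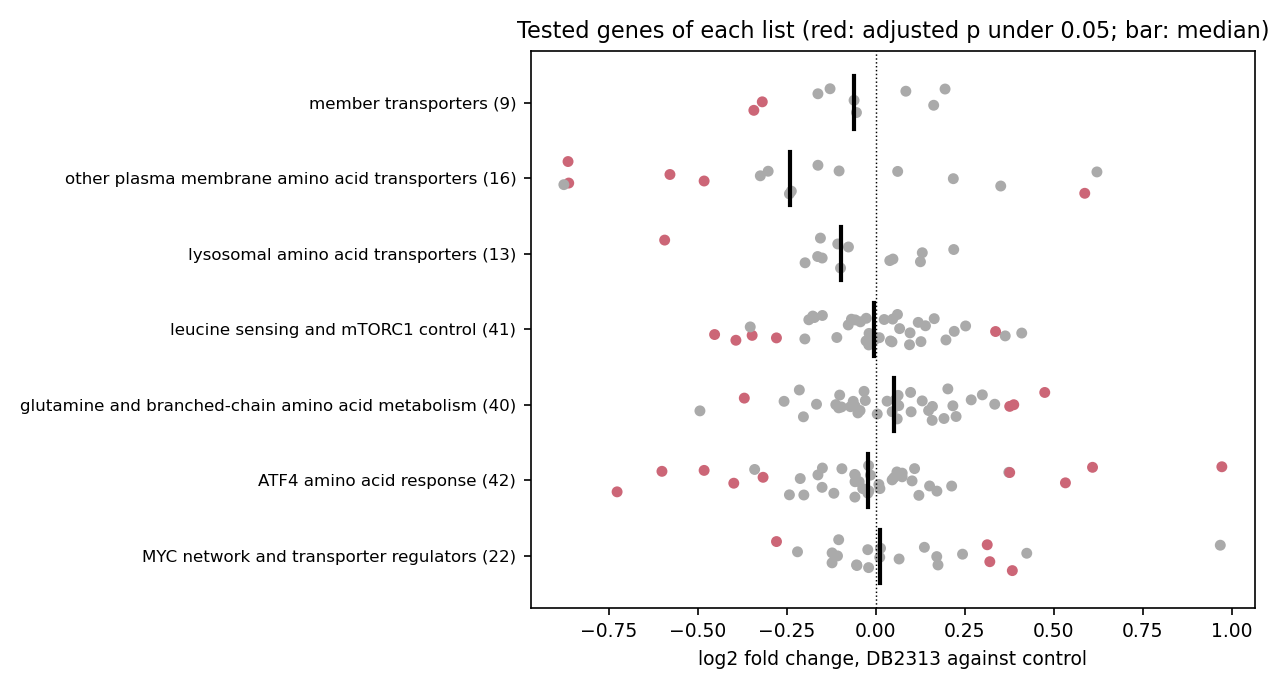
Log2 fold change, DB2313 against control (horizontal axis), of each tested gene of the 9 transporters (top row) and of the 6 lists around them, with the number of genes in brackets, called genes in red and the median as a black bar. The medians run from -0.24 for other plasma membrane transporters to 0.05 for glutamine and branched-chain amino acid metabolism, and called genes lie on both sides of 0 in every list of 16 genes or more.

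The results for the 9 genes were recomputed under 17 other settings. Slc43a2 passed in 15 and Slc38a2 in 14 of them, and both were lower in all 17. Slc3a2 and Slc7a5 were lower and Slc7a8 and Slc1a5 higher in all 17, with 1 call among them, that of Slc1a5 without DB2313 replicate 3. Without DB2313 replicate 1 the count was 2 lower and none higher, and without DB2313 replicate 3 it was 2 lower and 1 higher, these being the libraries farthest apart. The count of lower genes was 0 without control replicate 2, 0 without DB2313 replicate 2 and 1 without control replicate 1.

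**Figure D5:**
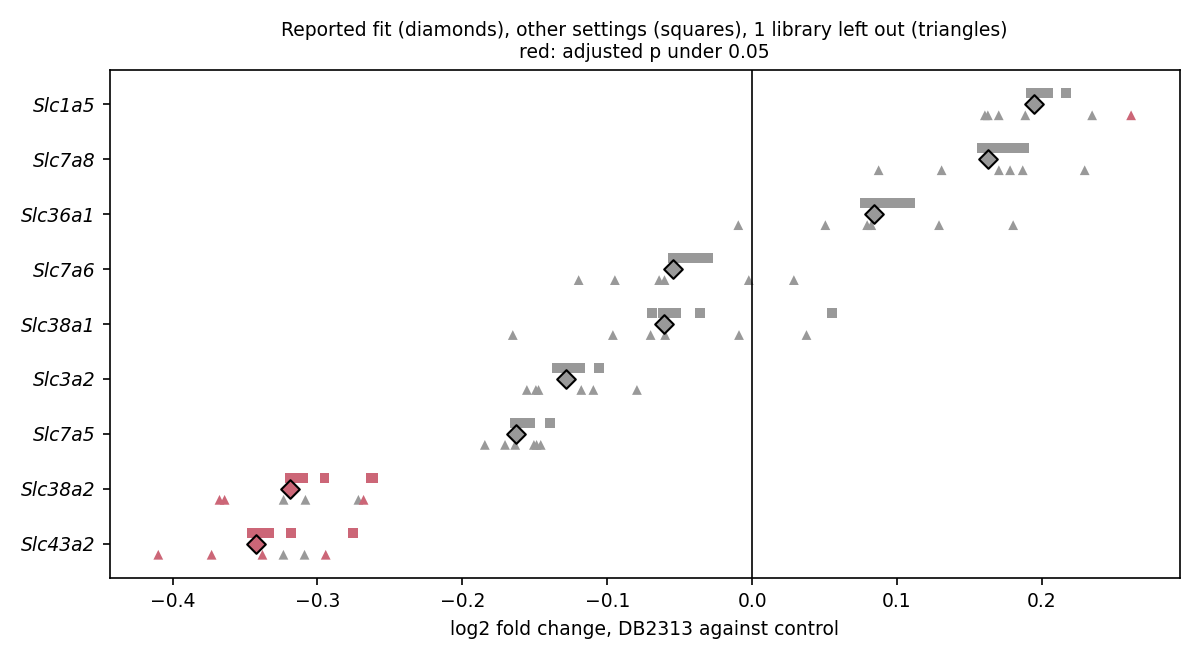
Log2 fold change of each transporter (horizontal axis) as reported (diamonds), under 11 other settings of the fit (squares) and with 1 of the 6 libraries left out (triangles), red where the adjusted p was under 0.05. Slc43a2 and Slc38a2 stay to the left of 0 throughout, and Slc38a1, Slc7a6 and Slc36a1 cross it.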

How the data were processed

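The authors deposited 1 table of whole-number read counts, not normalised, with a row per gene, a column per library and a column of gene lengths in bp. Submitters' processing notes named CASAVA 1.8, HISAT2 2.0.5 and featureCounts 1.5.0-p3, whereas the methods of the study named LifeScope. The genome build, the strandedness and the treatment of multi-mapping reads were not given in the sources used here. Of 54409 shared gene identifiers, 98.3% had the same coordinates in GENCODE M21 (GRCm38), as had all 9 transporters. Samples were grouped by the treatment in the labels. Control columns were matched by the abbreviation BMDC, usual for dendritic cells grown from bone marrow, and treated columns by Spi1, the target of DB2313, each with its replicate number.

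Counts were tested with the quasi-likelihood test of edgeR 4.0.16 (R 4.3.3), with TMM scaling, filterByExpr and Benjamini-Hochberg adjustment over 14174 genes, and called at 0.05. CPM used TMM-scaled library sizes. The depth of 16146743 to 19764677 counts and the common biological coefficient of variation of 9.66% set the precision. No molecular identifiers were named, so several reads may stem from 1 molecule. Alternatives used DESeq2 1.42.0, limma 3.58.1, a lowess offset for length (span 0.3), the replicate number as a block and the omission of each library. Levels per kilobase of the principal transcript were added after seeing the data. The script was tested on simulated data. Exon overlaps and copies (at least 95% identity over 300 bp) were searched in GENCODE M21. The 9 transporters, the lists around them and the tests were chosen with earlier results of these data known. Named were all 9 transporters, the 3 genes with the lowest p in each list and the 3 genes nearest to the transporter with the lowest p. Replicate numbers were shared between groups but showed no sign of pairing the libraries, with correlations of their deviations of 0.0035, -0.0238 and -0.121. Whether the libraries were prepared as pairs was not given, and 3 libraries a group cannot settle it.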

Additional observations from a re-analysis of the deposited data

How the results depend on the processing

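With 1 library left out, the 9 transporters gave 0 to 1 higher and 0 to 2 lower calls, and all genes 328 to 1097 higher and 411 to 1311 lower, with the most calls without DB2313 replicate 3. The log2 fold changes ran from -0.41 to -0.29 for Slc43a2, -0.37 to -0.27 for Slc38a2, 0.16 to 0.26 for Slc1a5, 0.087 to 0.23 for Slc7a8, -0.16 to -0.080 for Slc3a2, -0.18 to -0.15 for Slc7a5, -0.12 to 0.029 for Slc7a6, -0.17 to 0.038 for Slc38a1 and -0.0095 to 0.18 for Slc36a1, and the log2 ratio of Slc7a5 to Slc3a2 from -0.068 to 0.0024. Fewer libraries enter these fits, and the cause of each change was not tested. With the offset for gene length Slc38a1 turned to 0.056, and to 0.055 with the replicate block and that offset together. With the replicate block alone, Slc43a2 was at -0.34 (adjusted p = 0.0192, edgeR) and Slc38a2 at -0.32 (adjusted p = 0.0454, edgeR), and 502 genes were higher and 629 lower. The numbers did not pair the libraries, and the block changed no call among the 9. Of the 26 genes called in the lists around them, 5 were lost with it (Mlx, Mxd1, Ppp1r15a, Rptor and Wdr24, with adjusted p of 0.0956, 0.0589, 0.0649, 0.0617 and 0.0634, edgeR). Slc7a6 had the fewest counts of the 9 transporters and the largest SE (0.11 on the log2 scale).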
